A study of Mus musculus with 12 samples.

Results

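Oxidative phosphorylation is carried out by respiratory complexes I to V of the inner mitochondrial membrane, whose subunits come from both the nuclear and the mitochondrial genome. The genes described here were every protein-coding gene of the deposited count table whose name marks a subunit of these complexes (names that begin with Nduf and then a, b, c, s or v and a digit, or with Uqcr, Cox4 to Cox8 or Atp5, the 4 Sdh genes and Cyc1) or a mitochondrially encoded protein. Genes on the stretch of chromosome 7 around Rinl were left out, which removed Cox7a1 and Cox6b1. The rule gave 99 of 55487 genes, 86 nuclear and 13 mitochondrially encoded. By name the nuclear genes divided into 38 of complex I, 4 of complex II, 9 of complex III, 17 of complex IV and 18 of complex V. The mitochondrial genes divided into 7 of complex I, 1 of complex III, 3 of complex IV and 2 of complex V.

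The samples were CD4+ T cells sorted from spleen and peripheral lymph nodes of mice that lack Rinl, a regulator of small GTPases of the RAB5 family (KO), or carry it (WT). Effector cells were the CD44-high population of the sort and naive cells the CD44-low one, and the study asked what Rinl does in each. Each of the 4 groups (KO effector, WT effector, KO naive, WT naive) held 3 libraries, numbered as in the table: 10 to 12, 4 to 6, 7 to 9 and 1 to 3 in that order of groups. Strain, age, sex, number of mice and the way Rinl was deleted were not given in the sources used here. Whether each library stands for another mouse is unstated, and the p-values therefore speak of library-to-library spread, which may be technical.

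Complexes I, III and IV pass electrons from NADH to oxygen and pump protons, complex II feeds in electrons from succinate, and complex V, the ATP synthase, uses the proton gradient to make ATP. The mitochondrial genome encodes membrane-core subunits of complexes I, III, IV and V, and all subunits of complex II are nuclear. Both strands of mitochondrial DNA are transcribed as long precursors that are cut into single mRNAs, whereas each nuclear subunit has its own promoter. Naive CD4+ T cells are quiescent and rely largely on oxidative phosphorylation, and activation adds glycolysis and growth of the mitochondrial network.

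Total counts ran from 11606251 to 24320247 per library. Levels are given as CPM, counts scaled to library size and a TMM factor, or as FPKM where genes are compared with each other, since FPKM divides by gene length. Fold changes are log2 values ± SE, positive where the first-named group is higher, from 1 edgeR quasi-likelihood model of 15905 genes. A gene is called at an adjusted p under 0.05 over all of them. Rinl itself stood at 45.8, 47.5 and 49.4 CPM in KO effector, against 437, 451 and 463 CPM in WT effector libraries, and at 32.6, 32.2 and 34.4 CPM in KO naive, against 298, 299 and 285 CPM in WT naive libraries. The CD4 T cell markers Cd3e, Cd3d, Cd4, Trac, Lck and Thy1 summed to 4294 to 4503 CPM in KO effector, 4439 to 4553 CPM in WT effector, 4082 to 4257 CPM in KO naive and 4117 to 4267 CPM in WT naive libraries. The naive markers Ccr7, Lef1 and Satb1 summed to 492 to 549 CPM in KO effector and 549 to 586 CPM in WT effector, against 2259 to 2346 CPM in KO naive and 2281 to 2528 CPM in WT naive libraries. The 4 effector markers summed to 1420.3 to 1582 CPM in KO effector and 1643 to 1750.3 CPM in WT effector, against 119.6 to 132 CPM in KO naive and 101 to 116 CPM in WT naive libraries.

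Several mitochondrial genes have near-identical gene models on chromosome 1, and some of these models hold the larger counts. Of the 13 mitochondrial members, 9 passed the filter on low counts and 4 did not: mt-Co2, mt-Atp8 and mt-Atp6 had 0 counts in all libraries and mt-Co3 had 1. A block of 7 unprocessed pseudogene models on chromosome 1, minus strand, between 24611535 and 24616197, matches stretches of the mitochondrial genome and took 2421276 counts over the 12 libraries, against 2753762 counts on the mitochondrial members. The models Gm28661, Gm10925 and Gm28437 were 100% identical over their length to mt-Co2, mt-Atp6 and mt-Co3, and Gm29216 was 98.78% identical to part of mt-Co1. Stretches of 90 bases from 2 pairs are shown, a pair with differing bases and a pair without, because they show how little separates gene and copy. Capitals mark the 6 of 492 compared bases that differ between mt-Co1 and Gm29216, all within this stretch, and mt-Co2 and Gm28661 have none.
mt-Co1: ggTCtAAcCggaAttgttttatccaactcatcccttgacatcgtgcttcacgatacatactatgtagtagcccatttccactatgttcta
Gm29216: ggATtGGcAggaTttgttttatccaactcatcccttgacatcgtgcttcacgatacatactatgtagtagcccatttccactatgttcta
mt-Co2: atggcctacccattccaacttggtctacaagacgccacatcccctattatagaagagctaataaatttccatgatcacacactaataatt
Gm28661: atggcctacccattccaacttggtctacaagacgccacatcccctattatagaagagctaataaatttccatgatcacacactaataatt

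The split of counts was not the same for every pair. mt-Co1 kept 1083410 counts beside 936376 on Gm29216, while mt-Nd3, 99.71% identical to Gm28438, kept 19240 counts beside 2003 on the copy. Gm28439 and Gm10222, 100% identical to part of mt-Nd4 and to mt-Nd4l, had 36 and 0 counts. mt-Atp8 lies between mt-Co2 and mt-Atp6 on the mitochondrial genome, and 0% of its 50-base windows occurred in another annotated transcript. Of the 13 mitochondrial members, 7 had at least 50% of their 50-base windows in another gene's transcript, against 1 of the 86 nuclear members (Cox5b-ps). The treatment of reads that fit several places was not given in the sources used here, and the copy models' counts cannot be assigned to either locus.

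**Figure D1:**
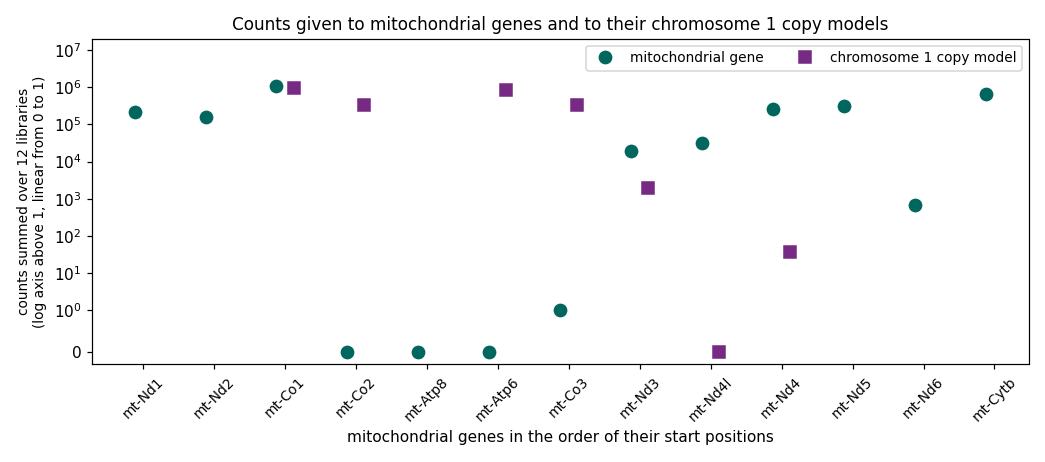
Counts summed over 12 libraries for the 13 mitochondrially encoded genes (circles, in the order of their start positions) and for the chromosome 1 copy model that matches each (squares), on a log axis above 1. The genes mt-Co2, mt-Atp8 and mt-Atp6 sit at 0 and mt-Co3 at 1, while the copies Gm28661, Gm10925 and Gm28437 hold between 326808 and 819053 counts.

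Per length, the median of the mitochondrial mRNAs stood far above that of the nuclear ones in every group, although the ranges overlapped. The median FPKM of the 9 tested mitochondrial genes was 692 in KO effector, 631 in WT effector, 915 in KO naive and 987 in WT naive cells. The median of the 78 tested nuclear genes was 55.4, 56.1, 52.1 and 50.6 FPKM in the same order of groups. The highest mitochondrial level was that of mt-Co1, the catalytic subunit of complex IV, at 2971 ± 327 FPKM in KO effector, 2578 ± 178 FPKM in WT effector, 3609 ± 174 FPKM in KO naive and 3812 ± 273 FPKM in WT naive cells (SD, n = 3 each). Next came mt-Cytb, the only mitochondrial subunit of complex III, at 2361 ± 264, 2227 ± 164, 2925 ± 21.6 and 3067 ± 291 FPKM in that order. The lowest was mt-Nd6, the one protein gene on the other strand, at 5.60 FPKM in KO effector, 4.54 FPKM in WT effector, 6.60 FPKM in KO naive and 7.58 FPKM in WT naive cells. These levels hold only the counts left on the mitochondrial models. The libraries were made from poly(A) RNA, so the levels also depend on how well each mRNA was captured. Capture was not tested for any of them, mt-Nd6 included.

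In KO cells, 4 of 9 measured mitochondrial mRNAs fell in effector relative to naive cells (mt-Nd2, mt-Nd5, mt-Co1 and mt-Cytb, median of the 9 log2 values -0.24), where 26.8% of all genes tested were called lower. In WT cells all 9 fell, with log2 values between -0.77 and -0.29 (median -0.59), where 25.9% of all genes tested were called lower. Between KO and WT no mitochondrial mRNA was called in either cell type: all 9 estimates were above 0 in effector cells and all 9 below 0 in naive cells. As ratios of group mean CPM, 7 of 9 stayed above 0 in effector cells without library 6 or library 10 and 8 of 9 without library 5, and the median log2 ratio of 0.13 was 0.020 without library 10. In naive cells all 9 stayed below 0 with any 1 naive library left out. The 9 share their libraries and long precursors and are not independent readings. CPM values are shares of a library's counts, and RNA per cell was not measured. In RNA from whole sorted populations, fewer cells that express a gene, less of its RNA per cell and more of other RNA cannot be told apart.

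mt-Co1 (ENSMUSG00000064351, chromosome M, 5328 to 6872, plus strand, GRCm38) stood at 5027, 4759 and 4049.8 CPM in KO effector, 4218, 3707 and 4105 CPM in WT effector, 5321, 5603 and 5862 CPM in KO naive and 5991, 5501 and 6318 CPM in WT naive libraries. Every effector library lay below every naive library in each genotype, and in effector cells 1 KO library, library 12, lay among the WT libraries. Its log2 change was -0.28 ± 0.073 in KO (effector over naive, edgeR adjusted p = 0.0036) and -0.57 ± 0.074 in WT (4.2e-06). For KO over WT it was 0.20 ± 0.073 in effector cells (edgeR adjusted p = 0.17) and -0.085 ± 0.073 in naive cells (0.72). Without library 12 the effector value was 0.29 and passed the threshold. With the counts of Gm29216 added, mt-Co1 gave -0.30 in KO and -0.57 in WT for effector over naive cells.

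mt-Cytb stood at 3045, 2638 and 2458 CPM in KO effector, 2716, 2361 and 2619 CPM in WT effector, 3384, 3338 and 3351 CPM in KO naive and 3836, 3171 and 3604 CPM in WT naive libraries. The effector libraries lay below the naive ones in both genotypes, and KO and WT libraries overlapped in both cell types. The change was -0.31 ± 0.079 in KO (edgeR adjusted p = 0.0034) and -0.46 ± 0.079 in WT (1.2e-04).

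The 7 mitochondrial subunits of complex I form part of its proton-pumping arm. mt-Nd5 stood at 1472, 1206 and 1126 CPM in KO effector, 1199.9, 1071 and 1208 CPM in WT effector, 1662, 1654 and 1707 CPM in KO naive and 1747, 1640.0 and 2053 CPM in WT naive libraries. All effector libraries were lower than all naive libraries. It fell by 0.40 ± 0.10 on the log2 scale in KO (edgeR adjusted p = 0.0053) and by 0.64 ± 0.10 in WT (2.0e-04), the largest KO change of the 9.

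mt-Nd2 stood at 714, 598 and 558 CPM in KO effector, 703, 549.8 and 577 CPM in WT effector, 746, 785 and 772 CPM in KO naive and 998, 825 and 928 CPM in WT naive libraries. Its naive KO libraries were all lower than its naive WT libraries, with a KO over WT value of -0.26 ± 0.11 that did not pass the test (edgeR adjusted p = 0.4). For effector over naive cells the change was -0.30 ± 0.11 in KO (edgeR adjusted p = 0.04) and -0.59 ± 0.11 in WT (0.001). The KO call was lost when library 6, 7, 8, 9, 11 or 12 was left out, and with no filter on low counts, with values of -0.34 to -0.23.

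mt-Nd1 stood at 1001, 943 and 781 CPM in KO effector, 969, 769.9 and 820.0 CPM in WT effector, 999, 1079.7 and 1144 CPM in KO naive and 1467, 1139 and 1337 CPM in WT naive libraries. Naive WT libraries reached the highest values, and the lowest of them lay within the KO range. The change for effector over naive cells was -0.24 ± 0.13 in KO (edgeR adjusted p = 0.13) and -0.62 ± 0.13 in WT (0.0019). In a fit of the 2 KO groups alone the KO change was -0.25 and passed the threshold.

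mt-Nd4 stood at 1309.5, 1217 and 996 CPM in KO effector, 1188, 927 and 1034 CPM in WT effector, 1148, 1340.1 and 1323 CPM in KO naive and 1606, 1333 and 1613 CPM in WT naive libraries. It was not called in KO (-0.11 ± 0.13, edgeR adjusted p = 0.49) and fell in WT (-0.53 ± 0.13, 0.0058). The neighbouring mt-Nd4l, whose last bases overlap the start of mt-Nd4, stood at 153, 169 and 117 CPM in KO effector, 138, 92.2 and 104 CPM in WT effector, 139, 159 and 168 CPM in KO naive and 219, 163 and 191 CPM in WT naive libraries. The KO and WT effector libraries of mt-Nd4l overlapped, and so did the naive ones. Its change was -0.075 ± 0.19 in KO (edgeR adjusted p = 0.76) and -0.77 ± 0.19 in WT (0.0076), the largest WT change of the 9.

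mt-Nd3 stood at 94.3, 95.6 and 80.7 CPM in KO effector, 99.2, 83.4 and 78.3 CPM in WT effector, 70.7, 84.6 and 88.2 CPM in KO naive and 114, 95.7 and 109 CPM in WT naive libraries. It was the one mitochondrial mRNA whose KO estimate for effector over naive cells was above 0 (0.16 ± 0.11, edgeR adjusted p = 0.25), and its fall in WT was at the threshold (-0.29 ± 0.11, 0.049). All naive KO libraries were below all naive WT libraries. The KO over WT value in naive cells was -0.39 ± 0.11, with the smallest adjusted p of the 9 in that comparison (0.16 by edgeR). DESeq2 called it, at -0.38. The WT fall lost its call when library 1, 3, 5, 6, 8, 10 or 11 was left out, and with DESeq2's size factors or TMM factors from nuclear genes only, at -0.29 to -0.22.

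mt-Nd6 stood at 3.19, 2.55 and 3.02 CPM in KO effector, 2.33, 2.24 and 2.55 CPM in WT effector, 3.71, 3.02 and 3.59 CPM in KO naive and 4.63, 3.12 and 4.15 CPM in WT naive libraries. The KO value was -0.24 ± 0.18 (edgeR adjusted p = 0.26), and in WT it fell by 0.73 ± 0.19 on the log2 scale (0.0023). The strand setting of the counting was not stated, and without it reads of the opposite strand cannot be told apart from mt-Nd6.

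**Figure D2:**
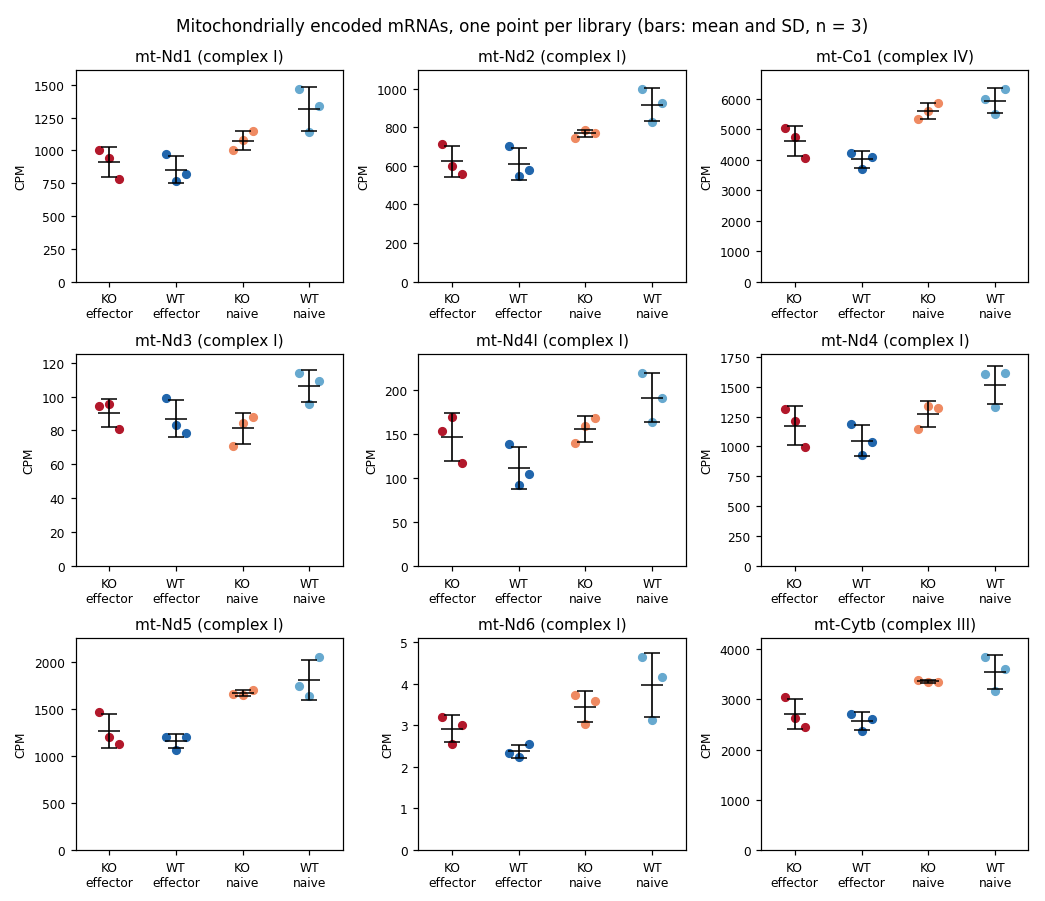
CPM of the 9 tested mitochondrially encoded mRNAs in each library (points) with mean and SD (bars, n = 3 per group), for KO effector, WT effector, KO naive and WT naive cells from left to right. WT naive libraries reach the highest value of each gene, and effector groups average lower than the naive group of the same genotype in every panel except mt-Nd3 in KO.

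The KO effect itself was compared between the cell types. No mitochondrial mRNA was called for the difference of the KO effects (effector minus naive), a test that called 0.145% of all genes. The estimates were all above 0, with a median of 0.38, and 4 of 9 had an unadjusted p under 0.05. Of all 15905 genes tested, 1461 did. By DESeq2 the count of mitochondrial mRNAs called was also 0, with 5 at an unadjusted p under 0.05, and by limma-voom it was 0, with 3. Of all genes, 1127 had such a p by DESeq2 and 1469 by limma-voom. The smallest edgeR adjusted p of the 9 was 0.38, that of mt-Co1, with a difference of 0.29 ± 0.10. The same contrast is the difference between the effector over naive changes of KO and WT, so the fall of 4 mRNAs in KO and 9 in WT was not shown to differ between genotypes for any of them.

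For KO over WT in naive cells edgeR called 0 of 9 mitochondrial and 0 of 78 nuclear members, where 1.18% of all genes were called. At an unadjusted p under 0.05 there were 3 mitochondrial members, all lower (mt-Nd1, mt-Nd2 and mt-Nd3), and 1 nuclear member, Cox4i1. Of all 15905 genes tested, 1885 had such a p. DESeq2 called 1 mitochondrial member (mt-Nd3) and 0 nuclear ones, and limma-voom called 0 of each. For KO over WT in effector cells edgeR again called 0 of 9 and 0 of 78, where 3.16% of all genes were called. Here 1 mitochondrial member (mt-Co1, higher) and 9 nuclear members, all lower, had an unadjusted p under 0.05. Of all 15905 genes tested, 2560 did. DESeq2 and limma-voom called 0 of each, with 7 and 9 nuclear members at an unadjusted p under 0.05. By these tools 1988 and 2580 of all genes had such a p. The median over the nuclear members was 0.012 in naive and -0.045 in effector cells, beside 0 and 0.0022 over all genes tested.

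Of the nuclear members, 12 of 78 had all 3 KO effector libraries below all 3 WT effector libraries, where 8.73% of all genes tested did, and 1 had them above, where 9.18% did. In naive cells 9 of 78 lay wholly above, where 10.7% of all genes did, and 1 wholly below, where 9.72% did. The nuclear member with the smallest adjusted p for KO over WT in either cell type was Atp5k, subunit e of the ATP synthase. It stood at 28.1, 31.5 and 29.7 CPM in KO effector, 31.9, 39.4 and 35.3 CPM in WT effector, 33.0, 29.9 and 32.4 CPM in KO naive and 31.3, 32.3 and 28.5 CPM in WT naive libraries. The effector KO libraries lay below the effector WT libraries, and the naive libraries overlapped. Its KO over WT value was -0.25 ± 0.078 in effector cells (edgeR adjusted p = 0.087), and without library 4 it was -0.32 and passed the threshold.

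One library bore on the sign of the nuclear members in effector cells. In WT effector library 5, 72 of 78 nuclear members had the highest CPM of the 3 libraries of their group and 8 of 9 mitochondrial members the lowest. Measured as the ratio of group mean CPM, KO over WT in effector cells was below 0 for 56 of 78 nuclear members (median log2 ratio -0.043). Without library 5 it was below 0 for 35 of 78 (median 0.0078). KO effector library 10 was the mirror case, lowest of its group for 61 of 78 nuclear members and highest for 7 of 9 mitochondrial ones. Without library 10 the ratio was below 0 for 44 of 78 (median -0.0099). What set these libraries apart was not tested.

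The nuclear subunits showed no common direction between effector and naive cells. In KO, 34 of 78 were called, 14 higher and 20 lower, which is 43.6% of them where 58.4% of all genes tested were called (31.6% higher, 26.8% lower). In WT, 25 of 78 were called, 16 higher and 9 lower, which is 32.1% where 56.2% of all genes were called (30.2% higher, 25.9% lower). None of these changes reached 2-fold, and the median was -0.0035 in KO and 0.061 in WT. The called genes shared 19 members, 55.9% of the KO and 76.0% of the WT calls, and all 19 had the same sign in both (10 higher, 9 lower). The same overlap over all genes was not counted, so the sharing cannot be called particular to these members. The counts by direction moved with single libraries. The KO calls were 5 higher and 18 lower without library 8 or library 11, 8 and 20 without library 9, and 22 and 16 without library 10. The WT calls were 9 higher and 10 lower without library 5, and 15 and 5 without library 6, and in all they were 17 without library 1.

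**Figure D3:**
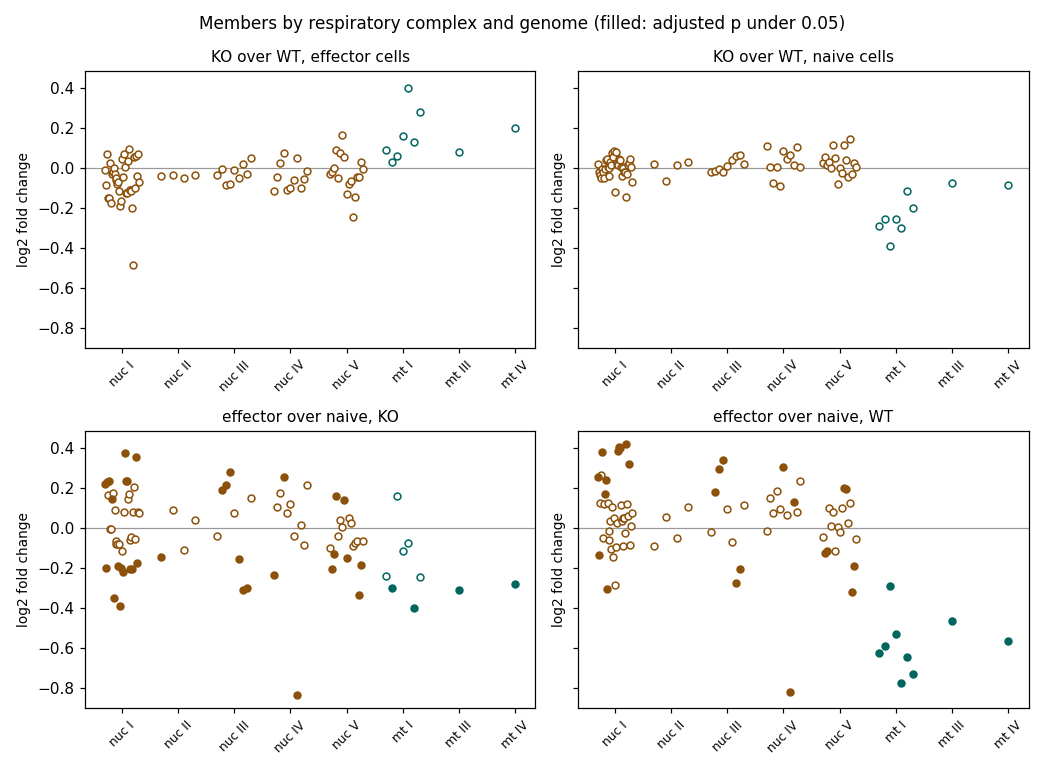
Log2 fold change of each tested member by complex and genome (nuc, nuclear; mt, mitochondrially encoded), for KO over WT in effector and naive cells (top) and for effector over naive in KO and WT (bottom). Filled points have an edgeR adjusted p under 0.05. No point is filled in the top panels, the 9 mitochondrial points are all filled and below 0 for WT, and the lowest nuclear point in the bottom panels is Cox7a2l.

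Complex I, which takes electrons from NADH, had 37 tested nuclear subunits by name. These include Ndufa4, described below, which rose in both genotypes and is now assigned to complex IV. In KO effector cells 8 rose and 9 fell, 45.9% of them where 58.4% of all genes were called, and in WT effector cells 9 rose and 2 fell, 29.7% where 56.2% of all genes were called. Ndufb8, an accessory subunit of the membrane arm, stood at 35.8, 32.8 and 34.5 CPM in KO effector, 38.1, 38.2 and 36.0 CPM in WT effector, 29.9, 29.2 and 28.1 CPM in KO naive and 29.3, 27.7 and 27.4 CPM in WT naive libraries. Effector libraries were higher than naive ones in both genotypes, by 0.24 ± 0.062 in KO (edgeR adjusted p = 0.0019) and 0.41 ± 0.064 in WT (7.1e-06). Ndufb9, another membrane-arm subunit, stood at 27.7, 26.0 and 26.6 CPM in KO effector, 28.4, 32.0 and 27.4 CPM in WT effector, 23.3, 21.3 and 23.6 CPM in KO naive and 23.4, 20.9 and 21.8 CPM in WT naive libraries. It rose by 0.24 ± 0.075 in KO (edgeR adjusted p = 0.0086) and 0.40 ± 0.077 in WT (8.9e-05), with the KO call lost without library 8, and 15.6% of its 50-base windows lie in an overlapping gene.

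The other direction was taken by Ndufa6 and Ndufa10, both accessory subunits. Ndufa6 stood at 56.2, 61.2 and 64.7 CPM in KO effector, 55.8, 64.2 and 61.6 CPM in WT effector, 80.7, 78.8 and 71.6 CPM in KO naive and 70.1, 76.4 and 77.7 CPM in WT naive libraries, with no effector library as high as a naive one. Its change was -0.35 ± 0.063 in KO (edgeR adjusted p = 4.7e-05) and -0.30 ± 0.065 in WT (3.2e-04). Ndufa10 stood at 68.8, 69.1 and 73.0 CPM in KO effector, 68.7, 80.0 and 74.8 CPM in WT effector, 84.1, 79.4 and 77.9 CPM in KO naive and 82.1, 79.5 and 83.3 CPM in WT naive libraries. Its KO change was -0.20 ± 0.054 (edgeR adjusted p = 0.0031). WT effector library 5 lay among the naive libraries, and the WT change of -0.13 ± 0.055 (edgeR adjusted p = 0.043) lost its call in 10 of 22 alternatives. 

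Ndufs8 and Ndufb7 also rose in both genotypes. Ndufs8, which carries iron-sulfur clusters, changed by 0.36 ± 0.060 in KO (edgeR adjusted p = 1.8e-05) and 0.32 ± 0.062 in WT (1.1e-04). Ndufb7 changed by 0.38 ± 0.090 in KO (edgeR adjusted p = 0.0019) and 0.39 ± 0.093 in WT (0.0019). These genes were named after their values were seen. Ndufa4, named for complex I and now assigned to complex IV, stood at 73.1, 77.6 and 73.1 CPM in KO effector, 74.5, 81.7 and 72.8 CPM in WT effector, 68.4, 69.4 and 64.6 CPM in KO naive and 63.4, 69.2 and 70.6 CPM in WT naive libraries, with changes of 0.15 ± 0.055 in KO (edgeR adjusted p = 0.027) and 0.17 ± 0.056 in WT (0.011). Its KO call was lost in 7 of 22 alternatives, among them without library 2, 3, 7, 8, 9 or 11, and its WT call without library 1 or library 5. Its paralogue Ndufa4l2, known for induction under low oxygen, had 0 counts in all libraries.

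Complex II, the succinate dehydrogenase, had 1 call in all: Sdha fell in KO, and none of its 4 subunits was called in WT (edgeR, with 0 at an unadjusted p under 0.05). That is 25.0% of the 4 in KO and 0.0% in WT, where 58.4% and 56.2% of all genes were called. Single libraries moved the complex II calls: Sdhb passed in KO without library 10 (0.14), Sdhc in KO without library 11 (-0.19) and Sdhd in WT without library 6 (0.16). Sdha, which binds the flavin cofactor, stood at 263, 263 and 276 CPM in KO effector, 276, 281 and 266 CPM in WT effector, 291, 310.0 and 285 CPM in KO naive and 288, 293 and 294 CPM in WT naive libraries. Its change was -0.15 ± 0.043 in KO (edgeR adjusted p = 0.0057) and -0.089 ± 0.043 in WT (0.088). Per length, Sdha stood at 91.7 FPKM in KO effector, 93.9 FPKM in WT effector, 101 FPKM in KO naive and 99.8 FPKM in WT naive cells. Sdhb, the iron-sulfur subunit, stood at 65.7 FPKM in KO effector, 67 FPKM in WT effector, 61.5 FPKM in KO naive and 64.0 FPKM in WT naive cells. The membrane anchors Sdhc and Sdhd stood at 15.7 and 48.0 FPKM in KO effector, 16.3 and 49.2 FPKM in WT effector, 17 and 46.8 FPKM in KO naive, and 16.8 and 45.6 FPKM in WT naive cells. Sdha was thus the highest and Sdhc the lowest of the 4 in each group.

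Complex III hands electrons from ubiquinol to cytochrome c, and of its 9 nuclear subunits 3 rose and 3 fell in KO effector cells, and 3 rose and 2 fell in WT effector cells. These calls were 66.7% of the 9 in KO and 55.6% in WT, near the 58.4% and 56.2% of all genes. The Rieske iron-sulfur protein Uqcrfs1 stood at 49.6, 49.3 and 50.2 CPM in KO effector, 46.7, 48.4 and 51.6 CPM in WT effector, 60.2, 63.2 and 61.4 CPM in KO naive and 56.7, 60.6 and 60.3 CPM in WT naive libraries. All effector libraries were below all naive ones, with a change of -0.31 ± 0.052 in KO (edgeR adjusted p = 1.9e-05) and -0.27 ± 0.054 in WT (1.3e-04). The hinge protein Uqcrh stood at 112, 102 and 123 CPM in KO effector, 108, 122 and 114 CPM in WT effector, 138, 136 and 139 CPM in KO naive and 132, 125 and 138 CPM in WT naive libraries. It fell by 0.30 ± 0.057 on the log2 scale in KO (edgeR adjusted p = 9.0e-05) and by 0.21 ± 0.058 in WT (0.0041). Cyc1, the cytochrome c1 subunit, stood at 79.6, 84.3 and 88.4 CPM in KO effector, 86.4, 91.5 and 80.6 CPM in WT effector, 85.4, 86.0 and 86.7 CPM in KO naive and 87.4, 90.8 and 82.6 CPM in WT naive libraries. Its groups overlapped, and the change was -0.036 ± 0.053 in KO (edgeR adjusted p = 0.59) and -0.017 ± 0.054 in WT (0.81).

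Among the small subunits of complex III, Uqcrb and Uqcr11 rose. Uqcrb stood at 29.6, 31.2 and 31.7 CPM in KO effector, 32.5, 34.0 and 31.4 CPM in WT effector, 27.0, 25.9 and 22.8 CPM in KO naive and 25.2, 26.4 and 25.4 CPM in WT naive libraries, with every effector library above every naive one. It rose by 0.28 ± 0.069 in KO (edgeR adjusted p = 0.0012) and 0.34 ± 0.072 in WT (2.6e-04), and 25.42% of its 50-base windows also occur in another gene's transcript. Uqcr11 stood at 23.6, 29.2 and 26.6 CPM in KO effector, 25.8, 31.8 and 27.2 CPM in WT effector, 24.5, 21.1 and 22.9 CPM in KO naive and 22.8, 23.1 and 22.9 CPM in WT naive libraries, and KO effector library 10 lay among the naive libraries. Its rise was 0.22 ± 0.086 in KO (edgeR adjusted p = 0.034) and 0.30 ± 0.089 in WT (0.0067). The KO call was lost in 10 of 22 alternatives, and the WT call without library 5.

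Complex IV, the cytochrome c oxidase, had 11 tested nuclear subunits by name. In KO effector cells 1 rose and 2 fell, and in WT effector cells 2 rose and 1 fell. These calls were 27.3% of the 11 in each genotype, where 58.4% of all genes in KO and 56.2% in WT were called. The KO rise was that of Cox5b-ps, and 61.88% of its 50-base windows also occur in Cox5b. The complex held the largest nuclear change. Cox7a2l, a Cox7a relative that joins complexes III and IV in supercomplexes (ENSMUSG00000024248, chromosome 17, 83501918 to 83517330, minus strand, GRCm38), stood at 154, 154 and 169 CPM in KO effector, 153, 156 and 151 CPM in WT effector, 289, 283 and 279.6 CPM in KO naive and 261, 269.6 and 283 CPM in WT naive libraries. The 6 effector libraries formed a tight set well below the 6 naive ones, and the KO and WT ranges overlapped in both cell types. It fell by 0.84 ± 0.046 on the log2 scale in KO (edgeR adjusted p = 9.8e-14) and by 0.82 ± 0.046 in WT (2.0e-13). KO over WT was 0.050 ± 0.047 in effector cells (0.66) and 0.067 ± 0.045 in naive cells (0.61). A pseudogene model shares 13.83% of its 50-base windows.

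Cox7a2, the Cox7a isoform of most tissues, was not called. It stood at 46.3, 44.2 and 47.4 CPM in KO effector, 41.8, 52.9 and 49.0 CPM in WT effector, 47.5, 46.0 and 47.9 CPM in KO naive and 44.8, 47.2 and 44.9 CPM in WT naive libraries, and the change was -0.039 ± 0.066 in KO (edgeR adjusted p = 0.64) and 0.066 ± 0.068 in WT (0.43). Without library 4 the WT value was 0.15 and passed the threshold. Per length, Cox7a2l stood at 138 ± 7.19 FPKM in KO effector, 133 ± 2.35 FPKM in WT effector, 247 ± 4.202 FPKM in KO naive and 235 ± 10.4 FPKM in WT naive cells (SD, n = 3 each). Cox7a2 stood at 69.4 ± 2.50, 72.2 ± 8.32, 71.3 ± 1.58 and 68.7 ± 1.95 FPKM in that order of groups. The muscle and heart isoform Cox7a1, left out by its position near Rinl, had 25 counts over the 12 libraries.

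Cox6c and Cox7b, structural subunits, rose in WT. Cox6c stood at 59.0, 57.9 and 58.4 CPM in KO effector, 61.6, 67.5 and 59.0 CPM in WT effector, 56.0, 55.5 and 49.2 CPM in KO naive and 50.7, 49.4 and 51.7 CPM in WT naive libraries. Its change was 0.12 ± 0.058 in KO (edgeR adjusted p = 0.078) and 0.31 ± 0.060 in WT (1.2e-04), and the KO value did not pass. Cox7b stood at 64.5, 69.0 and 66.7 CPM in KO effector, 70.2, 74.8 and 69.7 CPM in WT effector, 64.9, 65.1 and 67.7 CPM in KO naive and 63.7, 66.3 and 65.6 CPM in WT naive libraries, with 0.019 ± 0.049 in KO (edgeR adjusted p = 0.76) and 0.13 ± 0.050 in WT (0.027, lost without library 1 or library 5 and with no filter).

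Cox4i1, the main isoform of a subunit that regulates the complex, stood at 180.1, 192 and 201 CPM in KO effector, 196, 221 and 202 CPM in WT effector, 229, 222 and 222 CPM in KO naive and 207, 208 and 209 CPM in WT naive libraries. In naive cells all KO libraries were above all WT libraries, and in effector cells the KO libraries overlapped the WT ones. Its KO over WT value was -0.11 ± 0.049 in effector cells (edgeR adjusted p = 0.25) and 0.11 ± 0.048 in naive cells (0.37). The difference of these effects, -0.22 ± 0.069, had the smallest adjusted p of the nuclear members (0.25 by edgeR) and was not called. For effector over naive cells it fell in KO (-0.23 ± 0.048, edgeR adjusted p = 2.3e-04) and was -0.011 ± 0.049 in WT (0.87).

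Of the tissue-restricted isoforms of complex IV, none was tested. Cox4i2 had 5 counts, Cox6a2 had 5 and Cox6b2 had 63 over the 12 libraries, and Cox7b2, Cox8b and Cox8c had 0. Their widespread partners were present: Cox6a1 stood at 131 FPKM in KO effector, 142 FPKM in WT effector, 124 FPKM in KO naive and 132 FPKM in WT naive cells. Cox8a stood at 149.6, 151, 129 and 128 FPKM in that order. The Cox8a change of 0.24 ± 0.10 in WT, effector over naive, did not pass (edgeR adjusted p = 0.07), although 8 of 22 alternatives called it. Cox6b1, left out by position, stood at 83, 93.0 and 89.95 CPM in KO effector, 91.7, 98.8 and 95.3 CPM in WT effector, 83.9, 75.1 and 76.7 CPM in KO naive and 75.4, 80.0 and 72.8 CPM in WT naive libraries.

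Complex V, the ATP synthase, had 2 rises and 5 falls among 17 tested nuclear subunits in KO (41.2% called), and 2 and 4 in WT (35.3%), below the all-gene shares of 58.4% in KO and 56.2% in WT. Atp5j2, subunit f of the membrane part, stood at 73.3, 78.0 and 76.0 CPM in KO effector, 73.5, 85.7 and 78.6 CPM in WT effector, 78.5, 73.3 and 71.7 CPM in KO naive and 65.3, 71.5 and 69.7 CPM in WT naive libraries. It was 0.025 ± 0.057 in KO (edgeR adjusted p = 0.74) and rose in WT (0.20 ± 0.058, 0.0045). Atp5k, given above, was -0.090 ± 0.076 in KO (edgeR adjusted p = 0.32) and rose in WT by 0.20 ± 0.077 (0.032, lost without library 1, 3, 5 or 6).

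The subunits that fell included the small proteolipid Atp5mpl and Atp5o, which joins the catalytic head to the stalk. Atp5mpl stood at 33.7, 35.0 and 43.6 CPM in KO effector, 35.0, 43.8 and 36.4 CPM in WT effector, 44.7, 48.9 and 46.5 CPM in KO naive and 46.0, 46.3 and 51.3 CPM in WT naive libraries. Its change was -0.33 ± 0.089 in KO (edgeR adjusted p = 0.0034) and -0.32 ± 0.091 in WT (0.0058). Atp5o stood at 34.7, 35.6 and 42.6 CPM in KO effector, 33.9, 41.0 and 35.3 CPM in WT effector, 44.1, 42.0 and 41.3 CPM in KO naive and 43.4, 42.5 and 38.6 CPM in WT naive libraries. It was called narrowly in both genotypes (-0.19 ± 0.076 in KO, edgeR adjusted p = 0.042, and -0.19 ± 0.079 in WT, 0.049), and 7 of 22 alternatives lost the KO call and 11 of 22 the WT call. Of the catalytic head, Atp5b fell by 0.20 ± 0.043 on the log2 scale in KO (edgeR adjusted p = 2.8e-04) and by 0.12 ± 0.043 in WT (0.017), a gene named after its values were seen.

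The c-ring of the synthase is built from 1 mature protein that 3 genes encode, and these differed in level. Per length, Atp5g3 stood highest, at 152 ± 10.46 FPKM in KO effector, 146 ± 9.42 FPKM in WT effector, 138 ± 0.710 FPKM in KO naive and 145 ± 6.11 FPKM in WT naive cells (SD, n = 3 each). Atp5g2 stood at 17.4 ± 1.73, 15.5 ± 1.11, 17.5 ± 0.953 and 16.7 ± 2.68 FPKM in that order, and Atp5g1 at 6.68 ± 0.580, 6.36 ± 0.470, 6.52 ± 0.196 and 6.003 ± 0.459 FPKM. The order of the 3 per length was the same in all groups, with gaps wider than the SD. The place of Atp5g2 above Atp5g1 rests on the gene lengths behind the deposited FPKM values. In CPM, which is not divided by length, Atp5g1 was the higher. One call was made among them, Atp5g3 in KO effector over KO naive cells (0.14 ± 0.054, edgeR adjusted p = 0.029), which 9 of 22 alternatives lost. Other transcripts share 36.74% of the 50-base windows of Atp5g2 and 11.1% of those of Atp5g1. A second gene model named Atp5o had 0 counts.

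**Figure D4:**
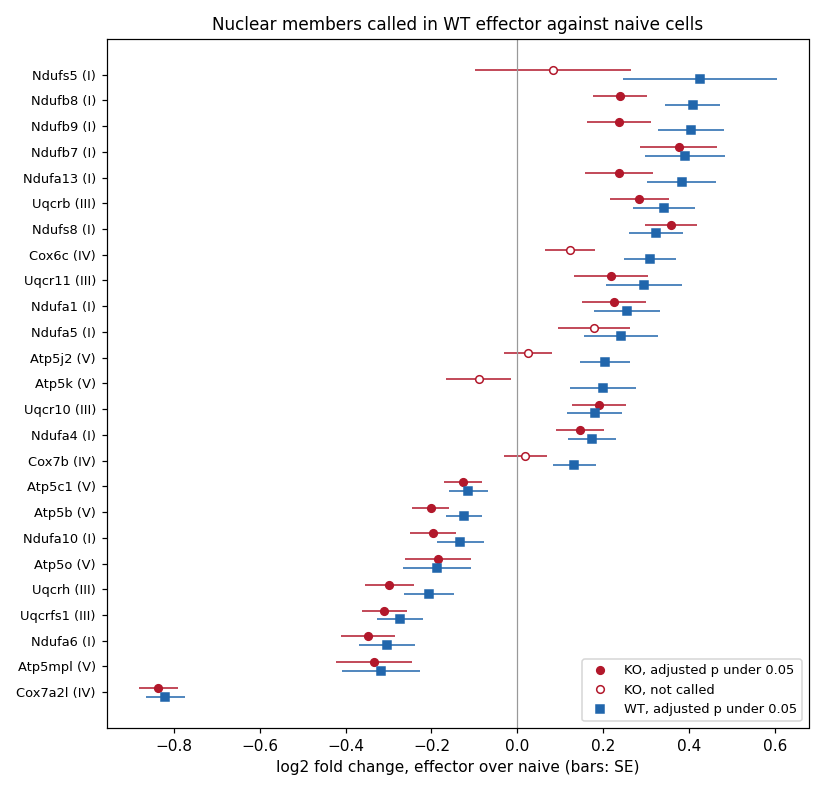
Log2 fold change of effector over naive cells, with SE, in KO (circles) and WT (squares), for the 25 nuclear members called in WT, with the complex in brackets. Filled symbols have an edgeR adjusted p under 0.05. The 9 genes called below 0 in WT are called below 0 in KO too, Cox7a2l lies apart at -0.84 in KO and -0.82 in WT, and the 6 open circles are the WT calls that KO did not pass.

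Summed over genes, the mitochondrial mRNAs stood lower in effector than in naive cells of both genotypes, and the nuclear sums differed less. The 9 mitochondrial mRNAs summed to 12819.7, 11628 and 10168 CPM in KO effector, 11233, 9563 and 10548 CPM in WT effector, 13474, 14047 and 14419.6 CPM in KO naive and 15982, 13870.4 and 16157 CPM in WT naive libraries. Every effector library lay below every naive library. The nuclear members summed to 5402, 5725 and 5819 CPM in KO effector, 5631, 6134 and 5657 CPM in WT effector, 6059.9, 5964 and 5919 CPM in KO naive and 5794, 5966 and 5895 CPM in WT naive libraries. Here WT effector library 5 was the highest of all 12 and KO effector library 10 the lowest.

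The log2 ratio of the mitochondrial to the nuclear sum was 1.02 ± 0.22 in KO effector, 0.85 ± 0.18 in WT effector, 1.22 ± 0.067 in KO naive and 1.38 ± 0.14 in WT naive cells (SD, n = 3 each). Between effector and naive cells the ratio differed by -0.20 in KO, against a pooled SD of 0.16, and by -0.53 in WT, also against 0.16. Leaving out library 12 made the KO difference -0.090 and leaving out library 10 made it -0.31. Between KO and WT the ratio differed by 0.18 in effector cells (pooled SD 0.20), and by -0.15 in naive cells (pooled SD 0.11). Without library 10 the effector value was 0.069 and without library 12 it was 0.29, and the naive value ran from -0.23 to -0.11 over the libraries left out. No p is given, since the ratio is a score over genes chosen for this description, and it holds only the 9 mitochondrial genes with counts. With the copy models' counts added, the difference between effector and naive cells was -0.20 in KO and -0.59 in WT.

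**Figure D5:**
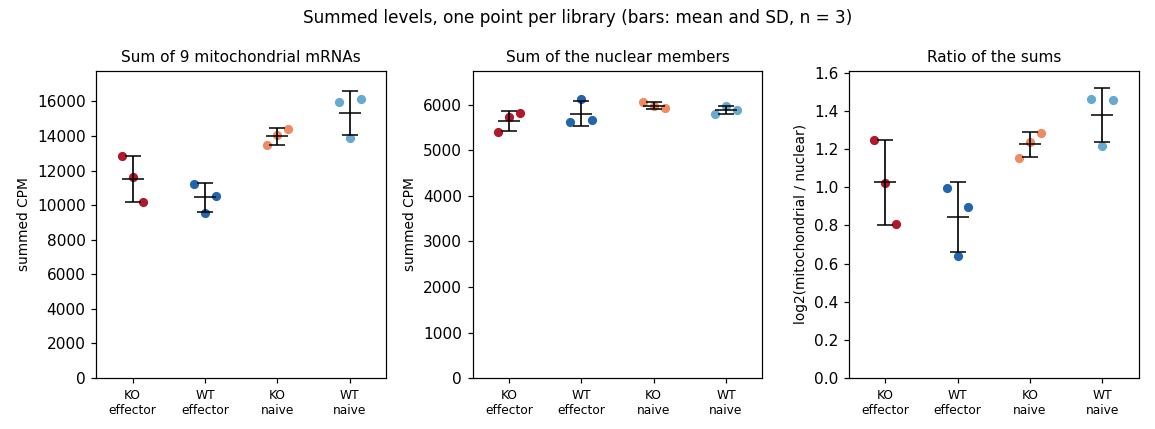
Summed CPM of the 9 tested mitochondrial mRNAs (left) and of the nuclear members (middle), and the log2 ratio of the sums (right), in each library with mean and SD (n = 3 per group). The mitochondrial sum of every effector library lies below that of every naive library, and the nuclear sums of all libraries lie between 5402 and 6134 CPM.

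Within groups, the mitochondrial mRNAs moved together and against the nuclear ones. Taken as deviations from the group means over the 12 libraries, the median correlation was 0.78 between mitochondrial genes, 0.41 between nuclear genes and -0.48 between a mitochondrial and a nuclear gene. All genes of a library share its depth and scaling, so this is a description. The 12 libraries include library 5 and library 10, in which the 2 sets stood at opposite ends of their groups. The correlations were not computed without these libraries or for other genes, so they cannot be called particular to the chain. The mitochondrial ribosomal RNAs, which a poly(A) kit captures poorly, were mixed: mt-Rnr1 was 0.18 ± 0.071 in KO for effector over naive cells (edgeR adjusted p = 0.035) and 0.11 ± 0.072 in WT (0.2). mt-Rnr2 was -0.25 ± 0.073 in KO (edgeR adjusted p = 0.0072) and -0.27 ± 0.074 in WT (0.0059).

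The copy models had lower estimates in effector cells too. Gm10925, the copy of mt-Atp6, a proton-channel subunit of the ATP synthase, stood at 4029.7, 3266 and 2808 CPM in KO effector, 2939.8, 2331 and 2436 CPM in WT effector, 3648, 4345 and 4986 CPM in KO naive and 4996, 4566 and 5307 CPM in WT naive libraries. Effector libraries overlapped the naive ones in KO and were lower than them in WT. The change was -0.36 ± 0.16 in KO (edgeR adjusted p = 0.085) and -0.95 ± 0.16 in WT (8.5e-04).

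Gm29216, the copy of mt-Co1, fell by 0.33 ± 0.078 on the log2 scale in KO (edgeR adjusted p = 0.0019) and by 0.57 ± 0.078 in WT (1.2e-05). Gm28661 (mt-Co2) was -0.041 ± 0.20 in KO (edgeR adjusted p = 0.87) and -0.47 ± 0.20 in WT (0.074). Gm28437 (mt-Co3) was -0.11 ± 0.21 in KO (edgeR adjusted p = 0.68) and -0.55 ± 0.21 in WT (0.054). Neither passed. With the copies' counts added to their genes, 12 mitochondrial genes could be tested, of which 4 fell in KO and 10 in WT. In the main fit 26.8% of all genes were called lower in KO and 25.9% in WT. For KO over WT 0 of the 12 were called by edgeR, with 2 at an unadjusted p under 0.05 in effector cells and 3 in naive cells. Of all genes in that fit, 2560 in effector cells and 1887 in naive cells had such a p.

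Genes that build and serve the chain were counted from lists of other members of the pathway. Beside these counts, 31.6% of all genes tested were called higher and 26.8% lower in KO, and 30.2% higher and 25.9% lower in WT. Of 25 tested genes for mitochondrial transcription and RNA handling, 8 (32.0%) fell and 0 rose in KO effector relative to naive cells (median -0.088), and 13 (52.0%) fell and 0 rose in WT (median -0.14), where the median of all genes was 0.0085 in KO and 0.0064 in WT. Lrpprc, which stabilises mitochondrial mRNAs, stood at 64.0, 58.5 and 60.7 CPM in KO effector, 63.4, 69.3 and 61.1 CPM in WT effector, 80.1, 81.2 and 84.0 CPM in KO naive and 84.3, 83.1 and 74.8 CPM in WT naive libraries. It fell by 0.42 ± 0.057 on the log2 scale in KO (edgeR adjusted p = 7.7e-07) and by 0.33 ± 0.057 in WT (3.1e-05). Trmt10c, a subunit of the enzyme that cuts the 5′ ends of mitochondrial tRNAs, fell by 0.49 ± 0.063 in KO and by 0.40 ± 0.065 in WT. Tfam, which packages mitochondrial DNA and starts its transcription, was -0.14 ± 0.049 in KO (edgeR adjusted p = 0.019) and -0.14 ± 0.050 in WT (0.025), a gene named after its values were seen.

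Of 10 genes for mitochondrial DNA maintenance, 7 fell and 1 rose in KO effector cells, and 7 fell and 3 rose in WT effector cells, where 26.8% of all genes in KO and 25.9% in WT were called lower. Polg2, an accessory subunit of the mitochondrial DNA polymerase, changed by -0.60 ± 0.092 in KO (edgeR adjusted p = 4.8e-06) and -0.59 ± 0.095 in WT (1.1e-05). Mgme1, a nuclease of mitochondrial DNA, rose by 0.42 ± 0.13 in KO and 0.49 ± 0.13 in WT. Of 77 mitochondrial ribosomal proteins, 4 (5.2%) rose and 20 (26.0%) fell in KO, the falls near the all-gene share of 26.8%, and 6 (7.8%) rose and 9 (11.7%) fell in WT, both below the all-gene shares. The ends were Mrps6 (0.90 ± 0.11 in WT) and Mrpl30 (-0.65 ± 0.072 in WT).

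Assembly factors were called in both directions, beside 58.4% of all genes called in KO and 56.2% in WT. Of 14 for complex I, 2 rose and 4 fell in KO (42.9% called), and 2 rose and 2 fell in WT (28.6%), led in WT by Ndufaf7 (0.56 ± 0.094) and Ndufaf4 (-0.32 ± 0.086). Of 35 for complexes II to V, 7 rose and 6 fell in each genotype (37.1% called). Lyrm7, which guides the Rieske protein Uqcrfs1 into complex III, fell by 1.39 ± 0.17 on the log2 scale in KO (edgeR adjusted p = 2.2e-07) and by 0.97 ± 0.17 in WT (3.6e-05). Sdhaf1, an assembly factor of complex II, rose by 0.52 ± 0.072 in KO and 0.59 ± 0.075 in WT.

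Of 8 subunits and carriers that the names do not catch, 2 rose and 3 fell in KO (62.5% called), and 2 rose and 2 fell in WT, beside all-gene shares of 58.4% and 56.2%. Atpif1, the inhibitor of the ATP synthase, rose by 0.96 ± 0.091 in KO (edgeR adjusted p = 2.5e-09) and 0.97 ± 0.097 in WT (6.3e-09). Etfb, part of the electron transfer flavoprotein, rose by 1.00 ± 0.13 in KO and 0.69 ± 0.14 in WT. Gpd2, which passes electrons from glycerol 3-phosphate to ubiquinone, fell by 0.84 ± 0.083 on the log2 scale in KO and 0.58 ± 0.082 in WT. Gpd2 was also lower in KO than in WT effector cells (-0.36 ± 0.088, edgeR adjusted p = 0.023), as were Tk2 (-0.21 ± 0.052, 0.03), a kinase of mitochondrial nucleotide supply, and Mrps5 (-0.29 ± 0.065, 0.014), a mitochondrial ribosomal protein. These were the only genes of the pathway lists called for KO over WT in effector cells, where 3.16% of all genes tested were called. In naive cells there was none by edgeR, where 1.18% of all genes tested were called.

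Of 11 regulators of mitochondrial biogenesis, 4 rose and 3 fell in KO (63.6% called), and 4 rose and 4 fell in WT (72.7%), where 58.4% of all genes in KO and 56.2% in WT were called. In WT, Tfe3 and Esrra, transcription factors of lysosomal and mitochondrial genes, rose by 0.84 ± 0.061 and 0.47 ± 0.074, and Myc and the coactivator Pprc1 fell by 0.55 ± 0.078 and 0.53 ± 0.046 on the log2 scale. Of 13 genes of ubiquinone synthesis, 2 rose and 1 fell in each genotype (23.1% called), with Coq8a at 0.67 ± 0.10 and Pdss1 at -0.45 ± 0.15 in WT. Of 9 for exchange across the inner and outer membranes, 3 rose and 6 fell in KO, and 3 rose and 3 fell in WT (66.7% called), among them in WT the calcium uniporter Mcu (0.53 ± 0.072), the uncoupling protein Ucp2 (0.47 ± 0.048), Vdac3 (-0.31 ± 0.072) and the ADP/ATP carrier Slc25a5 (-0.24 ± 0.045).

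Promoters were read for the nuclear members because the chain's nuclear genes are known targets of NRF1, GABPA and YY1. RefSeq promoters (GRCm38.p6, 250 bases before to 50 after the start) matched 66 of 86 nuclear members. The NRF1 motif (GCGC, any base, then TGCGC) was in 25.8% of them, against 5.19% of the promoters of 27025 genes. The GABPA motif CCGGAAG was in 24.2% against 9.93%, and the YY1 motif (AA, any base, then ATGG followed directly by CGGC) in 6.06% against 1.17%, all on either strand. The 27025 genes were not limited to genes with counts in these cells, and the shares among the genes tested were not computed. Among members higher in WT effector cells 3 of 13 held the NRF1 and 4 of 13 the GABPA motif, and among those lower 2 of 7 and 1 of 7. The YY1 motif was in 0 of the 13 and 0 of the 7. A match is a description of letters and no measure of binding. The levels of Nrf1 (-0.054 ± 0.049 in WT for effector over naive cells, edgeR adjusted p = 0.37) and Gabpa (0.038 ± 0.053, 0.57) were not called.

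From these promoters 4 are shown over 180 bases, from 150 before to 30 after the RefSeq start, 5′ to 3′ on the gene's strand, with motif letters in capitals (in Uqcrh and Sdha the matches read on the other strand). Cox7a2l (chr17:83514304-83514483, minus strand), with the largest nuclear change, held none of the 3 motifs in these bases. Uqcrh (chr4:116075041-116075220, minus strand), which fell, and Ndufb7 (chr8:83566608-83566787, plus strand), which rose, each held a GABPA match. Sdha (chr13:74350211-74350390, minus strand) held 3 NRF1 matches.
Cox7a2l: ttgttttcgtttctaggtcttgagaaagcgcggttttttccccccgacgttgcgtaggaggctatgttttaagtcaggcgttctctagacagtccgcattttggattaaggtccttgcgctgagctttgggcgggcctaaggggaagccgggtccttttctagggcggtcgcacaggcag
Uqcrh: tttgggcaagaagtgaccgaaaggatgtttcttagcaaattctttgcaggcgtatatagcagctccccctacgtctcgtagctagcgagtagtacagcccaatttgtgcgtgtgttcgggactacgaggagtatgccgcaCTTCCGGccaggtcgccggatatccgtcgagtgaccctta
Ndufb7: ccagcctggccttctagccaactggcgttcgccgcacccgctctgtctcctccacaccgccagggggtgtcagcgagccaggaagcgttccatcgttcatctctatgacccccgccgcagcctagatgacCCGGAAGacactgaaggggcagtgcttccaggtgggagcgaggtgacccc
Sdha: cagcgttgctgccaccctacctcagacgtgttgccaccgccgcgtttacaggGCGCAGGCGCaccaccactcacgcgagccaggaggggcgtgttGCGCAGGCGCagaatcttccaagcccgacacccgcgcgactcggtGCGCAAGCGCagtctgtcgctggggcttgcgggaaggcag

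Gene length went with the direction of the nuclear members. Across the 78 tested nuclear members, the Spearman correlation of the effector over naive change with exonic length was -0.31 in KO and -0.32 in WT, beside -0.042 and -0.072 over 11671 protein-coding genes. Members that rose in WT had a median exonic length of 1123 bases and those that fell 1801, beside 1697 for all 78. Deviations of single libraries from their group mean also went with length. Over the nuclear members the correlation was -0.39 in library 5, 0.36 in library 4 and 0.33 in library 8, and between -0.25 and 0.22 in the other 9. Over the protein-coding genes it was -0.32 in library 5, 0.22 in library 4 and 0.074 in library 8, and up to 0.26 (library 10) in the others. The part of length or RNA quality in these changes was not tested.

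Markers of other cells differed between the sorted populations, and some of them between genotypes. The 6 NK and innate-like T cell markers summed to 139 to 182 CPM in KO effector and 215 to 221 CPM in WT effector, against 16.9 to 20.2 CPM in KO naive and 14.9 to 19.6 CPM in WT naive libraries. The 7 B cell markers summed to 23.78 to 30.96 CPM in KO effector and 24.5 to 33.6 CPM in WT effector, against 4.27 to 6.15 CPM in KO naive and 2.00 to 3.65 CPM in WT naive libraries. Ms4a1, a defining marker, averaged under 1 CPM in every group. The 5 plasma cell markers summed to 118 to 127 CPM in KO effector and 115 to 126 CPM in WT effector, against 55.3 to 56.7 CPM in KO naive and 53.9 to 56.7 CPM in WT naive libraries.

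The 9 myeloid markers summed to 20.8 to 34.6 CPM in KO effector and 5.71 to 28.9 CPM in WT effector, and to 16.5 to 28.6 CPM in KO naive and 5.21 to 17 CPM in WT naive libraries. The 2 CD8 markers summed to 7.19 to 8.04 CPM in KO effector and 5.52 to 6.70 CPM in WT effector, against 19.8 to 21.8 CPM in KO naive and 19.5 to 20.8 CPM in WT naive libraries. Both CD8 sums were lower in effector cells. The 7 erythroid and platelet markers summed to 12 to 12.8 CPM in KO effector, 5.71 to 33.3 CPM in WT effector, 5.17 to 8.29 CPM in KO naive and 5.26 to 31.8 CPM in WT naive libraries. The 6 stromal markers summed to 158 to 164 CPM in KO effector and 169 to 176 CPM in WT effector, against 334 to 362 CPM in KO naive and 369 to 378 CPM in WT naive libraries, of which Pecam1, also made by naive T cells, held nearly all. No marker was at 0 in all libraries. For KO over WT in effector cells, edgeR called lower 3 of 6 NK and innate-like T cell markers, 1 of 6 tested B cell markers and 1 of 3 naive markers. In naive cells it called 1 of 4 effector markers higher. The other marker lists held no call between genotypes. Of all genes tested, 3.16% were called in effector and 1.18% in naive cells. The part of other cells in the changes of the chain was not tested.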

How the data were processed

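Poly(A) RNA of 12 sorted CD4+ T cell populations was sequenced with a stranded TruSeq kit (per the labels' protocols). Raw counts per gene and a second table, of FPKM values, were used as the authors deposited them. Per the submitters' processing notes mm10 and GRCm38 are the builds, and DESeq2 1.30.0, Picard and STAR are among the tools, with no role given. The deposited FPKM equalled count over gene length and a size factor, within 0.1%, for 98.7% of 13676 genes with a mean of at least 20 counts. The gene counter, its strand setting and its handling of multi-mapping reads are unstated.

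No 2 libraries of a group agreed within counting noise (chi-square per gene 2.18 to 5.74), so none was taken as a second deposit of another, and n counts libraries. Counts were filtered by group, scaled by TMM (factors 0.968 to 1.04) and fitted with edgeR 4.0.16 in R 4.3.3 (robust quasi-likelihood, 1 coefficient per group over all 12 libraries, Benjamini-Hochberg adjustment over 15905 genes), at a common biological coefficient of variation of 5.21%. Contrasts were KO over WT in effector and in naive cells, their difference, and effector over naive in KO and in WT. Alternatives used DESeq2 1.42.0, limma 3.58.1 (voom, or log2 FPKM with a pseudocount of 1 or 0.1), other scaling and filters, each library left out, and copy models merged with their genes, which was chosen after seeing the data. The fit was also run on counts simulated from its own means and dispersions. These hold no effects of single libraries, so the run checks the code and says nothing of such effects.

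Members, gene lists and markers were chosen with earlier results of these data known. Some marker genes are not reported here, and the marker sums leave them out. Genes given library by library were all tested mitochondrial ones and, per complex, the 2 largest called rises and falls of nuclear genes in WT effector over naive cells at 5 CPM or more in the higher group, beside isoforms and core subunits always described. Promoters were RefSeq's, and copies were found by 50-base windows and alignment of annotated transcripts.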

Additional observations from a re-analysis of the deposited data

Results flagged for a closer look

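Counts appeared on chromosome 1 copy models of mitochondrial genes, which lie outside the set of members and outside its comparisons. The lowest CPM over the 12 libraries was 3058.52 for Gm29216 (copy of mt-Co1), 1116.37 for Gm28661 (mt-Co2), 2331.39 for Gm10925 (mt-Atp6), 1117.64 for Gm28437 (mt-Co3) and 6.69239 for Gm28438 (mt-Nd3). The level that a count of 0 would allow, 3 counts in the smallest library, is 0.251 CPM and covers counting error only. Which locus these reads came from was not tested.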

How the results depend on the processing

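No paired analysis was possible because the columns carry no replicate number within a group. For 37 members 4028 single values were recomputed under the alternatives: 3921 stayed called or uncalled as before, 81 lost a call and 26 gained one. Of values called in either fit, 0 reversed in sign. Changes of sign in values called in neither fit were not counted. With no filter on low counts edgeR called 501 genes for KO over WT in naive cells (mt-Nd3 the 1 mitochondrial member), 959 in effector cells (1 nuclear member, Atp5k, and 1 mitochondrial member, mt-Co1) and 277 for the difference of the KO effects (1 member, mt-Co1). Fitting only the groups compared gave 528 in naive cells (1 member, mt-Nd2) and 230 in effector cells, and could not be had for the difference. On log2 FPKM limma called 40 and 57 in naive cells, 262 and 139 in effector cells and 13 and 8 for the difference, with a pseudocount of 1 and of 0.1. DESeq2 called 61 for the difference and 1 mitochondrial member, mt-Nd3, in naive cells. Why these counts move was not tested. Over the libraries left out, KO over WT calls ran from 66 (without library 8) to 255 in naive cells, from 194 (without library 11) to 662 in effector cells and from 10 (without library 8) to 85 (without library 4) for the difference. In effector cells 0 to 1 nuclear members (Atp5k, without library 4) and 0 to 1 mitochondrial members (mt-Co1, without library 12) were called. For effector over naive cells they were 23 to 39 nuclear and 3 to 4 mitochondrial members in KO, and 17 to 28 and 8 to 9 in WT. No scaling moved the median of all genes by 0.1 on the log2 scale. Levels of the mitochondrial genes hold only the counts not on their copies, and mt-Nd6 rests on 2.24 to 4.63 CPM.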
